A study of Mus musculus with 90 samples.

Results

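Imprinted genes are transcribed mainly from the allele inherited from 1 parent. The 49 imprinted genes described here were rows of the deposited count table, out of 24422 genes. Their symbols matched a list of known mouse imprinted genes, which was chosen with earlier results of these data known. Of the 49 genes, 25 are listed here as paternally expressed, 22 as maternally expressed and 2 (Grb10 and Gnas) as tissue-dependent. The other genes may also vary by tissue or transcript, and the classes were not measured at these stages. The counts carry no allele information, so every value is the sum of both alleles.

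The parental marks are laid down in the germ cells as DNA methylation at imprinting control regions, and the zinc-finger protein ZFP57 with its partner TRIM28 protects many of them while the rest of the genome is demethylated after fertilization. A second, methylation-independent form of imprinting rests on histone H3 lysine 27 methylation from the oocyte and concerns Gab1, Sfmbt2, Slc38a4 and Smoc1 among the genes here. The products regulate fetal and placental growth, and many of the genes are paired in domains where a non-coding RNA of 1 allele silences its neighbours.

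Single mouse MII oocytes, 2c embryos and 8c embryos were profiled by 5′-end RNA-seq with spike-in RNA. The mice were of the CD-1 strain, and the superovulated females were WT or Plag1 knockout (KO), in which lacZ replaces the open reading frame of Plag1. MII oocytes came from unmated females, 21 to 23 h after hCG. Embryos came from matings with WT males and were cultured to the 2c stage (45 to 47 h) or the 8c stage (71 to 73 h), so that the KO embryos, called matPlag1KO, lacked the maternal but carried the paternal Plag1 allele. The females that gave each oocyte or embryo are not named in the labels, so the p-values measure the spread between single oocytes or embryos and may hold shared mothers.

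In all, 90 libraries were made in 2 pools, here called plate A and plate B, and 78 were kept: 16 WT and 14 KO MII oocytes, 11 WT and 11 KO 2c embryos, and 15 WT and 11 KO 8c embryos. Kept libraries held from 92475 to 2502421 gene counts. The median was lowest at 2c, with 148473 in WT and 163626 in KO, so a gene at low CPM (counts scaled to the same library total) was often at 0 in a single 2c embryo. Plag1 itself was found in 16 of 16 WT oocytes (median 24.3 CPM) and in 3 of 14 KO oocytes. At 2c the order was opposite: Plag1 counts were seen in 1 of the 11 WT embryos but in 9 of the 11 from KO mothers (median 35.7 CPM). Summed levels of 16 cumulus and granulosa cell markers stayed at or below 56.5 CPM in every library, with 4 to 10 of the 16 at 0 in each whole group. A difference in RNA per embryo and a difference in the share of a transcript cannot be told apart from CPM alone, so stage changes are given per 1000 spike-in counts.

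Several imprinted genes lie inside another one, and the retrogenes Mcts2 and Zrsr1 and the antisense RNA Kcnq1ot1 start within the hosts H13, Commd1 and Kcnq1. The 250 bases before the RefSeq start of each are shown with that of the host H13, to set the separate starts side by side. Capitals mark the hexamer TGCCGC or its reverse complement, the core of the ZFP57 recognition sequence. The sequences are those of RefSeq (table build GRCm38.p6), placed on mm9, the build of the counts, by an exact match.
Kcnq1ot1 (mm9 chr7:150482453-150482702, minus strand): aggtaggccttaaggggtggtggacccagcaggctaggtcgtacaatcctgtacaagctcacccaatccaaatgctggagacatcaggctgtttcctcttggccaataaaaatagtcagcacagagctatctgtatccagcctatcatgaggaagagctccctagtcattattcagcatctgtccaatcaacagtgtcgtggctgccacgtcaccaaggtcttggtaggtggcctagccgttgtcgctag
Mcts2 (mm9 chr2:152512634-152512883, plus strand): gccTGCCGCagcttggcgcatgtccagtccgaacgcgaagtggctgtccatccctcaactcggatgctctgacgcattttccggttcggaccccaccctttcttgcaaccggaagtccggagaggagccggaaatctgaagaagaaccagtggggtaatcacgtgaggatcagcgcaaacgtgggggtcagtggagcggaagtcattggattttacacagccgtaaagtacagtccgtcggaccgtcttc
H13 (mm9 chr2:152494947-152495196, plus strand): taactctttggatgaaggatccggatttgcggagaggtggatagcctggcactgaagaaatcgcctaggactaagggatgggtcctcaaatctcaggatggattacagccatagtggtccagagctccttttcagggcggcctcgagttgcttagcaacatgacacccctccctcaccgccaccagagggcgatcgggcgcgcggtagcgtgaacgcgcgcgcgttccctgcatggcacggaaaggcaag
Zrsr1 (mm9 chr11:22871755-22872004, plus strand): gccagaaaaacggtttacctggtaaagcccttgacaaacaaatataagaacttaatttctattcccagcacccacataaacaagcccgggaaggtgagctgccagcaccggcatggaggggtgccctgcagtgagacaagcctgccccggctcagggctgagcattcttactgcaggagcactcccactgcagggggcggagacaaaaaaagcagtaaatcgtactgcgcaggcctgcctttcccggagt

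The hexamer was found in the window of Mcts2 and in none of the other 3 windows. A promoter window was given for 37 of the 49 genes, and 8 of them (21.6%) held the hexamer in at least 1 window: Calcr, Copg2, Mcts2, Meg3, Mest, Nap1l5, Zdbf2 and Zim1. Of all 27025 genes with a window, 9.84% held it. Methylated control regions can lie outside these windows, so a window without the letters says nothing about the factor.

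A form of the binding consensus of PLAG1, the factor removed in these females, was searched on both strands. It was GAGGC or GGGGC followed by 6 to 8 bases of any kind and GGG, and the letters overlap other GC-rich motifs. It was present in at least 1 window of 15 of the 37 genes (40.5%), against 21.9% of all genes. Genes differ in their number of windows and in base composition, and this was not adjusted for. The consensus shown in the paper also has a position that can be G or T, which this form lacks. The paper searched a database PLAG1 site and its own de novo motif in a wider promoter window, so its shares are not comparable with these. The windows of the gene called at 2c, Blcap, and of 3 genes that were highest at 2c are shown with matches in capitals.
Blcap (mm9 chr2:157392098-157392347, minus strand): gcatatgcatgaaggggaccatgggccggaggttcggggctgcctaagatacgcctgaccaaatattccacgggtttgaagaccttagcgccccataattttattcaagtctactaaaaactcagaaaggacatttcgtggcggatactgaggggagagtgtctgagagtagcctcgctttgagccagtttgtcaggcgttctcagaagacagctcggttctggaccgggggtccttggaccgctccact
Phlda2 (mm9 chr7:150688430-150688679, minus strand): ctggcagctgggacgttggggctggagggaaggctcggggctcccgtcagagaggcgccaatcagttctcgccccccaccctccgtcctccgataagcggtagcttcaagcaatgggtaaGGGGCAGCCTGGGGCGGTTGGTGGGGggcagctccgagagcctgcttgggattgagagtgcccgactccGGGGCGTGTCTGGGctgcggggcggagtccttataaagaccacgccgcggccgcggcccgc
Ascl2 (mm9 chr7:150155170-150155419, minus strand): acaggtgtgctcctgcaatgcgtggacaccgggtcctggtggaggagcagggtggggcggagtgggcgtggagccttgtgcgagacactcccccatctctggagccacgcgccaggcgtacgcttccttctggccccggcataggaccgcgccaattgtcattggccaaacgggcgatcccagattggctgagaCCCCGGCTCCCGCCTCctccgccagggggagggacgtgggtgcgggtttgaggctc
Calcr (mm9 chr6:3713624-3713873, minus strand): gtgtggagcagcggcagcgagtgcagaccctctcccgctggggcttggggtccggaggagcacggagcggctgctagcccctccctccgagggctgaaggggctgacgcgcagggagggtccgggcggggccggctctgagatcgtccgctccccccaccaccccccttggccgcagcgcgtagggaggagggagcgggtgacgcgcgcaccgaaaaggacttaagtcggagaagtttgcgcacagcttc

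Phlda2 held 4 matches, some of which overlap, and Ascl2 held 2, while Blcap and the window of Calcr shown here held none. A match describes the letters and was not tested for binding.

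Of the 49 genes, 39 reached 1 CPM in at least 5 kept libraries and were tested among 16511 genes: 18 paternally expressed, 19 maternally expressed and the 2 tissue-dependent ones. The other 10 were H19, Ndn, Magel2, Mkrn3, Dlk1, Mirg, Rtl1, Nap1l5, Nnat and Kcnk9. None of these had more than 5 counts in all 78 libraries, and H19, Mirg, Nap1l5 and Kcnk9 had 0. H19, the maternally expressed RNA that marks trophoblast and fetal tissue, was thus not detected in any library. Among the tested genes the counts summed over all libraries ran from 8 (Peg13) to 6548 (Kcnq1).

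**Figure D1:**
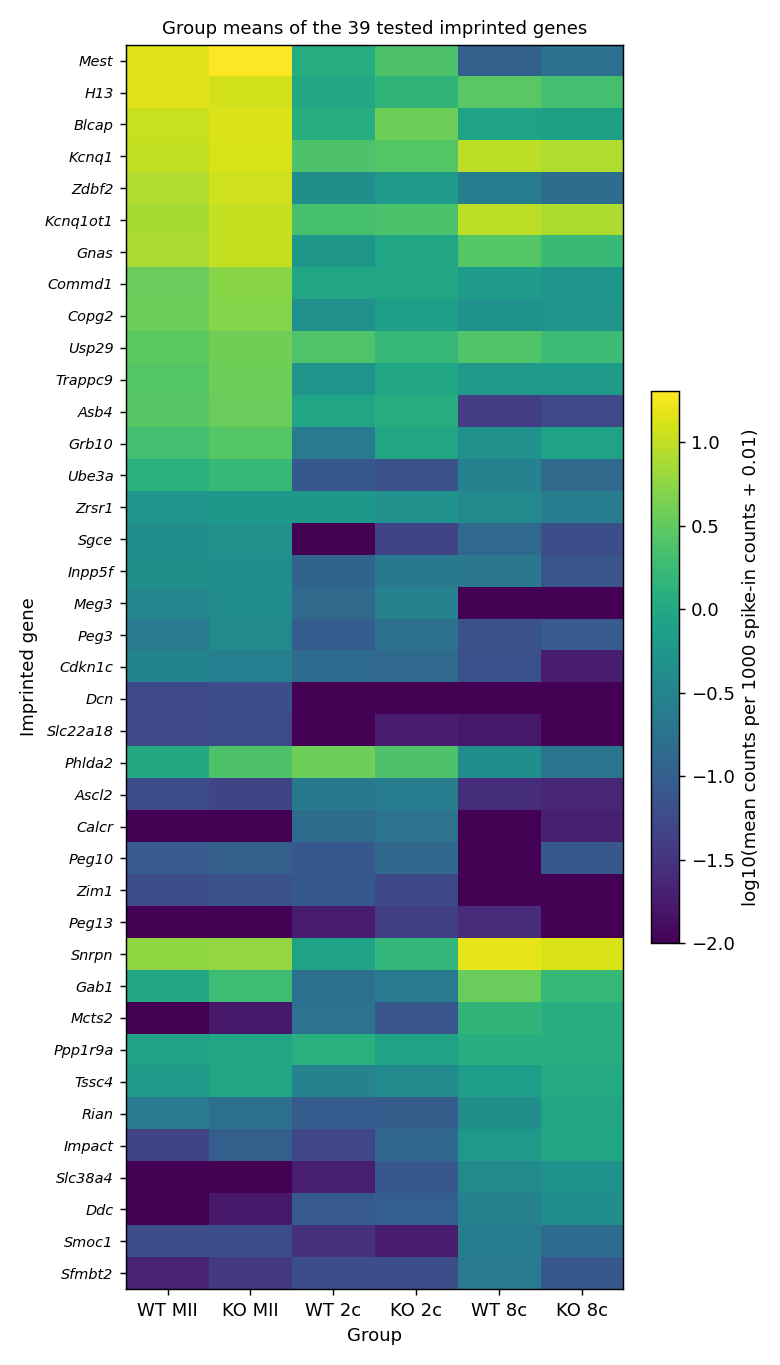
Mean level of each of the 39 tested imprinted genes (rows) in the 6 groups (columns), as log10 of the mean counts per 1000 spike-in counts plus 0.01; rows are grouped by the stage with the highest level (oocyte at the top, then 2c, then 8c). Mest, H13 and Blcap lead the oocyte block, Phlda2, Ascl2 and Calcr are in the 2c block, and Snrpn, Gab1 and Mcts2 in the 8c block.

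The count table was made per gene span, which matters for the nested genes. The deposited files state no counting rule, and it was read from the values. Among pairs in which a gene with at least 200 counts lay wholly inside another, the host had at least as many counts as the nested gene in each of the 78 libraries for 743 of 744 pairs on the same strand and 599 of 599 pairs on opposite strands. The row of a host therefore held the counts of its nested gene, whichever strand they came from.

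Kcnq1, a voltage-gated potassium channel gene (mm9 chromosome 7, 150293159 to 150612947, plus strand), showed this most. Kcnq1ot1 (150399016 to 150482452, minus strand), the paternally expressed RNA that silences the domain, lies inside it and made up 71.6% of the Kcnq1 counts in WT oocytes, 91% in WT 2c embryos and 99.8% in WT 8c embryos. At 8c, 4 counts of Kcnq1 in 15 WT embryos and 7 in 11 KO embryos fell outside Kcnq1ot1. The whole Kcnq1 row rose from 2c to 8c in WT embryos by 2.00 on the log2 scale (SE 0.39, adjusted p = 9.73e-06, edgeR quasi-likelihood test), but with the Kcnq1ot1 counts taken out it fell by 2.66 (adjusted p = 0.0108). In KO embryos the same subtraction turned a rise of 1.62 (adjusted p = 0.00045) into -1.85 (adjusted p = 0.0839). Reads of Kcnq1 that start inside the Kcnq1ot1 span are lost by this subtraction.

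Mcts2, a retrogene of the translation factor gene Mcts1 (mm9 chromosome 2, 152512884 to 152513678, plus strand), lies in H13, the signal peptide peptidase gene (152495197 to 152534404, plus strand). It gave 0% of the H13 counts in WT oocytes, 17.8% at WT 2c, 50.8% at WT 8c and 56% at KO 8c. H13 rose from 2c to 8c in WT embryos (log2 fold change 1.58, adjusted p = 0.00849), and without the Mcts2 counts its change was 0.84 with adjusted p = 0.177, no longer called. Zrsr1, a splicing-factor retrogene, gave 15.8% of the counts of Commd1, a copper-homeostasis gene, in WT oocytes, 66.3% at 2c and 56% at 8c. Ddc, the dopa decarboxylase gene, held the non-imprinted 1700042O10Rik, which made up 67.3% of its WT 8c counts and 0% at 2c. Without these the rise of Ddc from 2c to 8c was no longer called, with log2 fold changes of 0.26 in WT (adjusted p = 0.81) and 0.37 in KO (adjusted p = 0.733). Peg13 in Trappc9 and Nnat in Blcap gave at most 3.81% in any group.

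**Figure D2:**
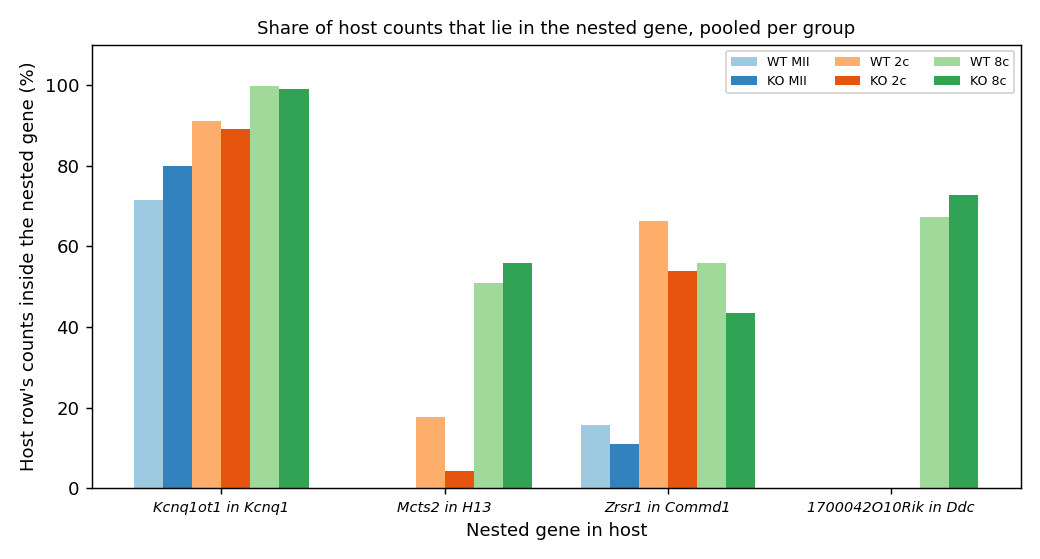
Percent of the counts of a host gene that lie in the gene nested inside it (bars, pooled over the libraries of each of the 6 groups), for 4 host genes. The share of Kcnq1ot1 in Kcnq1 went from 71.6% in WT oocytes to 99.8% at WT 8c, and that of Mcts2 in H13 from 0% to 50.8%.

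Partly overlapping genes share counts too, and their rows are uncertain in the same way. Snrpn, a spliceosomal protein gene, overlaps Snurf on the same strand, with 5571 counts in Snurf against 6225 in Snrpn. Gpr1 overlaps Zdbf2, Nespas overlaps Gnas, Zim3 overlaps Usp29, and Mest and Copg2 overlap at their ends by 913 bases. Mcts2 and Zrsr1 are near copies of their parent genes, so reads that match both could be placed in either.

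The first step, from the MII oocyte to the 2c embryo, covers the loss of the RNA stored in the oocyte and the onset of embryonic transcription. Among WT samples 5 of the 39 imprinted genes rose and 19 fell, while 14.1% of all tested genes rose and 51.3% fell. Among KO samples 6 rose and 19 fell, against 13.5% and 50.3% of all tested genes. With TMM scaling in place of spike-ins the balance was different, with 9 genes higher and 9 lower in WT and 12 higher and 6 lower in KO. The median change of the 39 genes was -1.34 in WT and -1.29 in KO, beside -1.46 and -1.42 for all genes. These shares lie near the background. In both genotypes 17 genes fell and 4 rose, and the share of all tested genes called in both was not counted. The 2 genotypes share no libraries in this step, but a fall was common among all tested genes in each.

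Mest, which encodes an alpha/beta hydrolase-like protein, ranged in WT oocytes from 1 to 126 counts per 1000 spike-in counts (median 3.49) and in WT 2c embryos from 0.376 to 2.54 (median 0.956), so the ranges overlapped. The fall was 3.67 on the log2 scale in WT (SE 0.65, adjusted p = 1.07e-06) and 3.06 in KO (SE 0.63, adjusted p = 2.1e-05). It went on to 8c, where 9 of 15 WT and 5 of 11 KO embryos had any count and the WT median was 0.0885 (log2 fold change from 2c -3.40, adjusted p = 2.14e-05).

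Zdbf2, a paternally expressed zinc-finger gene, went from a WT oocyte median of 3.63 (range 0 to 48.7) to 0.358 (range 0 to 1.08) at 2c. Its log2 fold change was -4.28 in WT (adjusted p = 4.41e-09) and -4.25 in KO (adjusted p = 4.63e-09). Ube3a, the ubiquitin ligase gene, went from a WT median of 1.12 to 0, with a count in 5 of 11 WT 2c embryos (log2 fold change -4.02, adjusted p = 2.78e-07). The ranges of both genes overlapped between the stages.

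Gnas, which encodes the stimulatory G protein alpha subunit, fell from a WT median of 4.13 to 0.438 (log2 fold change -3.75, adjusted p = 2.59e-09). Grb10, a signaling adaptor that restrains growth, fell from a WT median of 1.1 to 0.182 (log2 fold change -3.11, adjusted p = 8.95e-06). Sgce, a sarcoglycan gene, summed to 77 counts over 8 of 16 WT oocytes and to 0 over the 11 WT 2c embryos. The WT oocytes ranged from 0 to 4.38 per 1000 spike-in counts (median 0.0454, mean 0.411), so the highest oocyte weighs heavily in this sum. With the empty group set to 3 counts Sgce was 16.6-fold lower in pooled counts. Its 95% counting interval had a lower limit of 13.2-fold, which does not cover the spread between oocytes. Dcn, the decorin gene, was at 0 in all 22 kept 2c embryos and 26 8c embryos after 8 counts in 6 WT oocytes. The other genes that fell in both genotypes were Snrpn, Kcnq1, Kcnq1ot1, Asb4, Copg2, H13, Gab1, Blcap, Trappc9 and Commd1. Under TMM scaling without spike-ins, Snrpn, Grb10 and Asb4 had changes of the opposite sign in KO samples, and the median change of all genes was -0.03 in WT, so these falls are relative to the spike-in RNA.

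The genes that rose at 2c were few, and most of these calls depended on the test. The alternative program DESeq2, with spike-in size factors, called only Phlda2 and Mcts2 higher at 2c in WT and none in KO. It called neither the rises of Calcr, Ascl2 and Ddc nor the falls of Calcr and Ascl2 to 8c. Calcr, the calcitonin receptor gene, was at 0 in 16 WT and 14 KO oocytes and had counts in 8 of 11 WT and 7 of 11 KO 2c embryos (WT median 0.101, highest 0.598 per 1000 spike-in counts). It was 7.21-fold higher in WT 2c embryos and 8.29-fold higher in KO 2c embryos, with the empty oocyte group set to 3 counts. Its 95% counting intervals had lower limits of 5.13-fold in WT and 6.11-fold in KO. At 8c it was at 0 in 15 WT embryos and had 1 count in 1 of 11 KO embryos. All but 1 of its 34 counts came from 2c embryos.

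Ascl2, a helix-loop-helix factor of the trophoblast, was detected in 2 of 16 WT and 4 of 14 KO oocytes, and 6 of 11 WT and 5 of 11 KO 2c embryos held it. It rose at 2c by 1.78 on the log2 scale in WT (adjusted p = 0.0366) and 2.40 in KO (adjusted p = 0.00829) and fell from 2c to 8c (adjusted p = 0.00201 and 0.00168), where only 3 WT counts and 1 KO count remained, 12.7-fold (95% counting interval 3.83 to 65.9) and 27.4-fold (4.53 to 1120) lower in pooled counts. Phlda2 is a pleckstrin-homology gene that limits placental growth. Its WT median went from 0.742 in oocytes to 4.22 at 2c and 0.176 at 8c, and in KO from 2.36 to 2.41 and 0. Phlda2 rose at 2c in WT by 1.89 (SE 0.55, adjusted p = 0.00188), and its KO change was 0.00 (SE 0.56, adjusted p = 1). Under TMM scaling Phlda2 was called higher at 2c in both genotypes, so the flat KO change is relative to the spike-in RNA. Mean log2 gene counts per spike-in count were 5.59 in WT and 6.17 in KO oocytes. The difference in Phlda2 between genotypes at 2c was not called (log2 fold change -0.94, adjusted p = 0.299). Phlda2 then fell from 2c to 8c in both genotypes, by 3.18 in WT and 3.65 in KO (adjusted p = 3.64e-06 and 9.57e-06).

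Mcts2 had 0 counts in 16 WT oocytes and 1 in the 14 KO oocytes. At 2c it was found in 7 of 11 WT and 4 of 11 KO embryos, and at 8c in all 26. Its WT median per 1000 spike-in counts was 0, 0.119 and 1.08 at the 3 stages, and its KO median was 0, 0 and 1.08. The rise from 2c to 8c was 3.01 on the log2 scale in WT (SE 0.56, adjusted p = 5.11e-06) and 3.96 in KO (SE 0.63, adjusted p = 2.02e-07). Ddc rose at 2c in both genotypes, on 8 WT and 9 KO counts.

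**Figure D3:**
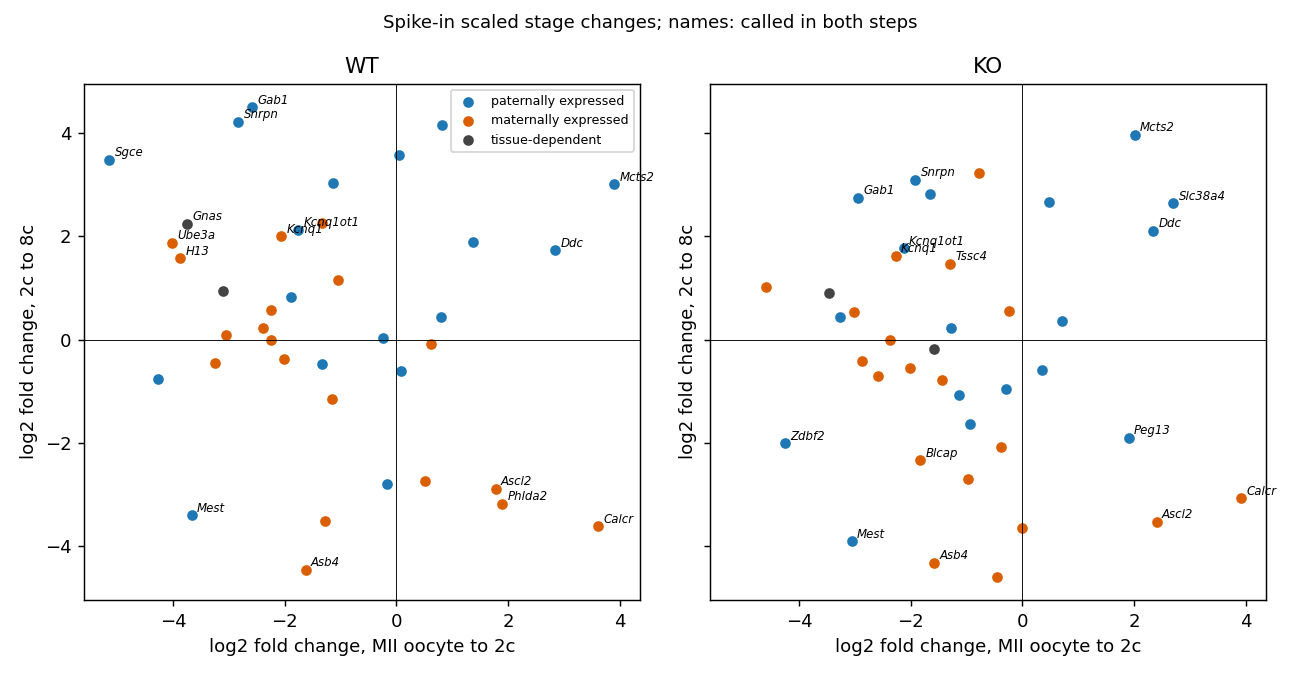
Log2 fold change from MII oocyte to 2c (x axis) and from 2c to 8c (y axis) of the 39 tested imprinted genes in WT (left) and KO (right), scaled by spike-ins. Names are given for genes called in both steps, and colours mark the listed class. Calcr and Ascl2 sit at the lower right in both panels (up at 2c, down at 8c), Mcts2 at the upper right, and Mest and Asb4 at the lower left.

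The second step, from 2c to 8c, follows major genome activation. In WT embryos 14 of the 39 genes rose and 8 fell, while 31.9% and 16.3% of all tested genes did. In KO embryos 11 rose and 11 fell, against 29.2% and 19.5% of all tested genes. With TMM scaling more of them fell than rose, 10 higher and 15 lower in WT and 9 higher and 17 lower in KO. In both genotypes 10 genes rose and 7 fell by spike-in scaling, and no gene was called in opposite directions. For this step too, the share of all tested genes called in both was not counted. The 10 include the host rows Kcnq1 and Ddc, and 8 rose in both genotypes once nested counts were taken out. By listed class, 9 of 18 paternally expressed genes rose and 2 fell in WT, while 4 of 19 maternally expressed genes rose and 6 fell. The medians were 1.81 for paternally expressed, -0.08 for maternally expressed and 0.53 for all genes. In KO, 8 and 3 paternally expressed and 3 and 8 maternally expressed genes rose and fell, with medians of 0.4 and -0.7 beside 0.30 for all genes. With nested counts taken out, 8 paternally expressed genes rose and 2 fell in WT, while 2 maternally expressed genes (Rian and Ube3a) rose and 7 fell. The difference between the classes was not tested.

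Snrpn ranged from 3.87 to 31.5 in WT 8c embryos (median 14.1), above all WT 2c embryos (0.202 to 1.62, median 0.821). The change was 4.21 in WT (SE 0.59, adjusted p = 2.8e-09) and 3.10 in KO (SE 0.56, adjusted p = 3.05e-06). All 4 genes with non-canonical imprinting had positive changes, and 3 were called in each genotype. Of all tested genes 31.9% in WT and 29.2% in KO were called higher, and their median changes were positive too (0.53 and 0.30). The 4 genes were not tested as a class. Gab1, a docking protein of receptor tyrosine kinase signaling, went from a WT median of 0.101 to 3.45 (log2 fold change 4.50, adjusted p = 2.54e-06) and from 0.294 to 1.36 in KO (2.75, adjusted p = 0.00206). Slc38a4, an amino acid transporter gene, was found in 1 of 11 WT 2c embryos, in 14 of 15 WT and in 11 of 11 KO 8c embryos (adjusted p = 1.55e-05 in WT and 0.00181 in KO). From the pooled counts of 1 and 64 it was 38.7-fold higher in WT at 8c (95% counting interval 6.7 to 1550), and from 7 and 50 counts 7.3-fold higher in KO (3.29 to 19.1). Smoc1, a matrix protein gene, was found in 1 of 11 WT 2c and 10 of 15 WT 8c embryos (adjusted p = 0.00462), on 2 and 42 counts, a 12.7-fold rise with a counting interval of 3.3 to 108. In KO its call rests on 1 count at 2c and 15 at 8c. Sfmbt2, a Polycomb gene, had 1.89 in WT (adjusted p = 0.0595) and 0.36 in KO (adjusted p = 0.766).

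Impact, a paternally expressed regulator of translation under amino acid stress, was found in 3 of 11 WT 2c and 14 of 15 WT 8c embryos (log2 fold change 3.58, adjusted p = 0.00015) and in 11 of 11 KO 8c embryos (2.66 in KO, adjusted p = 0.00222). Kcnq1ot1 rose by 2.13 in WT (SE 0.36, adjusted p = 4.93e-07) and 1.77 in KO (adjusted p = 3.82e-05). The 8c WT median was 7.45 against 2.19 at 2c, and the ranges, 3.02 to 25.4 and 0.94 to 3.83, overlapped.

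Within the Dlk1-Meg3 domain the maternally expressed RNAs went opposite ways. Meg3 was detected in 13 of 16 WT oocytes and 7 of 11 WT 2c embryos and was at 0 in all 26 8c embryos. With each empty group set to 3 counts, it was 7.16-fold lower than at 2c in WT and 10.4-fold lower in KO. Its 95% counting intervals had lower limits of 5.04-fold in WT and 8.01-fold in KO. Rian was found in 4 of 11 WT 2c and 12 of 15 WT 8c embryos, with medians of 0 and 0.3 (log2 fold change 2.26, adjusted p = 0.00782), and in 11 of 11 KO 8c embryos (3.23, adjusted p = 0.000269). The paternally expressed Dlk1 and Rtl1 of the domain were at or near 0 throughout. Asb4, a maternally expressed gene of another domain, went from medians of 0.564 in WT and 0.858 in KO at 2c to 0 in both (log2 fold change -4.46, adjusted p = 4.61e-10, and -4.32, adjusted p = 2.63e-08). Zim1 also fell in both genotypes, on 7 WT and 4 KO counts at 2c.

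Some genes were called in only 1 genotype, and edgeR's interaction test of the difference between the genotypes' steps called none of them (DESeq2 called Blcap for the 2c to 8c step). Slc22a18, a transporter gene, and Inpp5f, a phosphatase gene, fell from oocyte to 2c in WT, while Tssc4 and Usp29 fell and Slc38a4 and Peg13 rose in KO. From 2c to 8c Sgce, Gnas and Ube3a rose and Peg10 fell in WT, and the host row H13 rose only with the Mcts2 counts in it. In KO, Tssc4 rose and Cdkn1c, a cyclin-dependent kinase inhibitor gene, Peg13, Zdbf2 and Blcap fell. Both KO calls of Peg13 rest on 4 counts in 2 of 11 KO 2c embryos, with 0 counts in KO oocytes and KO 8c embryos. The counting intervals of Peg13 had lower limits of 0.864-fold for the rise and 0.646-fold for the fall. Each interval thus includes no change. By spike-in scaling Peg3, a zinc-finger gene, Ppp1r9a, which encodes neurabin, Zrsr1 and Sfmbt2 were called in no stage step. Under TMM scaling Ppp1r9a, Zrsr1 and Sfmbt2 were called higher from oocyte to 2c in both genotypes. From 2c to 8c TMM called Zrsr1 lower in both genotypes, Ppp1r9a lower in WT and Peg3 lower in KO. Ppp1r9a was found in 77 of the 78 libraries, with WT medians of 0.495, 1.28 and 0.974 per 1000 spike-in counts at the 3 stages.

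The genotype comparison asks whether the missing maternal Plag1 changed these genes at each stage. Of the 39 tested genes, 0 were called in MII oocytes, 1 at 2c (Blcap) and 1 at 8c (Peg10), while 0.775%, 4.83% and 1.67% of all tested genes were called. At an unadjusted p under 0.05 the imprinted genes numbered 0, 8 and 2 (0%, 20.5% and 5.13%), beside 10.2%, 20.4% and 14.2% of all tested genes. DESeq2 called 0, 2 and 0. With oocyte well and plate added to the edgeR fit, 1 imprinted gene (Mest) was called in oocytes, among 701 of 13070 genes. The difference between genotype effects at 2c and at the other stages was called for 0 imprinted genes, while 3.19% (2c against MII) and 2.26% (2c against 8c) of all genes were called. At an unadjusted p under 0.05 there were 3 and 5 imprinted genes (7.69% and 12.8%), beside 17.7% and 17.8% of all genes. DESeq2 called 1 imprinted gene in each of these comparisons, Grb10 and Blcap.

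Blcap, a maternally expressed apoptosis-related gene (mm9 chromosome 2, 157382098 to 157392097, minus strand), ranged from 5.21 to 137 CPM in the 11 WT 2c embryos (median 61.4) and from 36.9 to 481 CPM in the 11 KO 2c embryos (median 106). The groups overlapped, and all 22 embryos had counts. The log2 fold change was 1.54 (SE 0.42, adjusted p = 0.0209). It rests on the 2 highest KO libraries, at 481 and 466 CPM, which were in well D2 of both plates. Whether these 2 libraries are independent was not tested. These 2 libraries also had the highest gene counts (256529 and 232044) and the highest summed levels of 6 oocyte markers of the KO 2c embryos, 6480 and 8530 CPM, while the KO 2c embryos ranged from 2270 to 8530 CPM and the WT ones from 1360 to 6490. Of the 6 markers all had counts in both groups, and 1, Bmp15, was called at 2c (log2 fold change 1.83, adjusted p = 0.02). The part of these markers in the Blcap difference was not tested. Without either of these libraries the call was lost (adjusted p = 0.0799 and 0.0839), and without both the log2 fold change was 0.73 (adjusted p = 0.358). Within plates it was 1.47 (adjusted p = 0.538) in plate A and 1.5 (adjusted p = 0.0765) in plate B. In oocytes Blcap was at a median of 105 CPM in WT and 162 CPM in KO, not called, and at 8c at 19.3 and 20.1 CPM. The oocyte order differed by plate, with medians of 220 (WT) and 160 CPM (KO) in plate A and 44 and 163 CPM in plate B. The log2 fold change from oocyte to 2c was -3.25 in WT and -1.83 in KO (adjusted p = 2.71e-07 and 0.0012), and from 2c to 8c it was -0.45 in WT (adjusted p = 0.471) and -2.34 in KO (adjusted p = 0.000276).

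Grb10 at 2c ranged from 0 to 41.7 CPM in WT (median 11.2) and from 0 to 97.4 CPM in KO (median 32.3), with 8 and 9 of 11 embryos above 0. The log2 fold change was 1.73 (SE 0.59, adjusted p = 0.0661) and so was not called by edgeR, though DESeq2 called it. Usp29, a deubiquitinating enzyme gene, had the opposite direction at 2c, with a median of 124 CPM in WT (range 63.7 to 200) and 48.9 CPM in KO (range 26.3 to 249), a log2 fold change of -0.84 and an adjusted p of 0.144.

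Peg10, a retrotransposon-derived gene needed in the placenta, was at 0 in 15 WT 8c embryos and had 9 counts in 2 of 11 KO 8c embryos, 4 and 5 counts at 7.63 and 13.4 CPM, both in plate A. With the WT group set to 3 counts it was 4.95-fold higher, and its 95% counting interval had a lower limit of 3.25-fold. The call (adjusted p = 0.0386) rests on these 2 embryos. Without either it was lost (adjusted p = 0.0844 and 0.153), and Peg10 in plate B was at 0 in both groups.

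**Figure D4:**
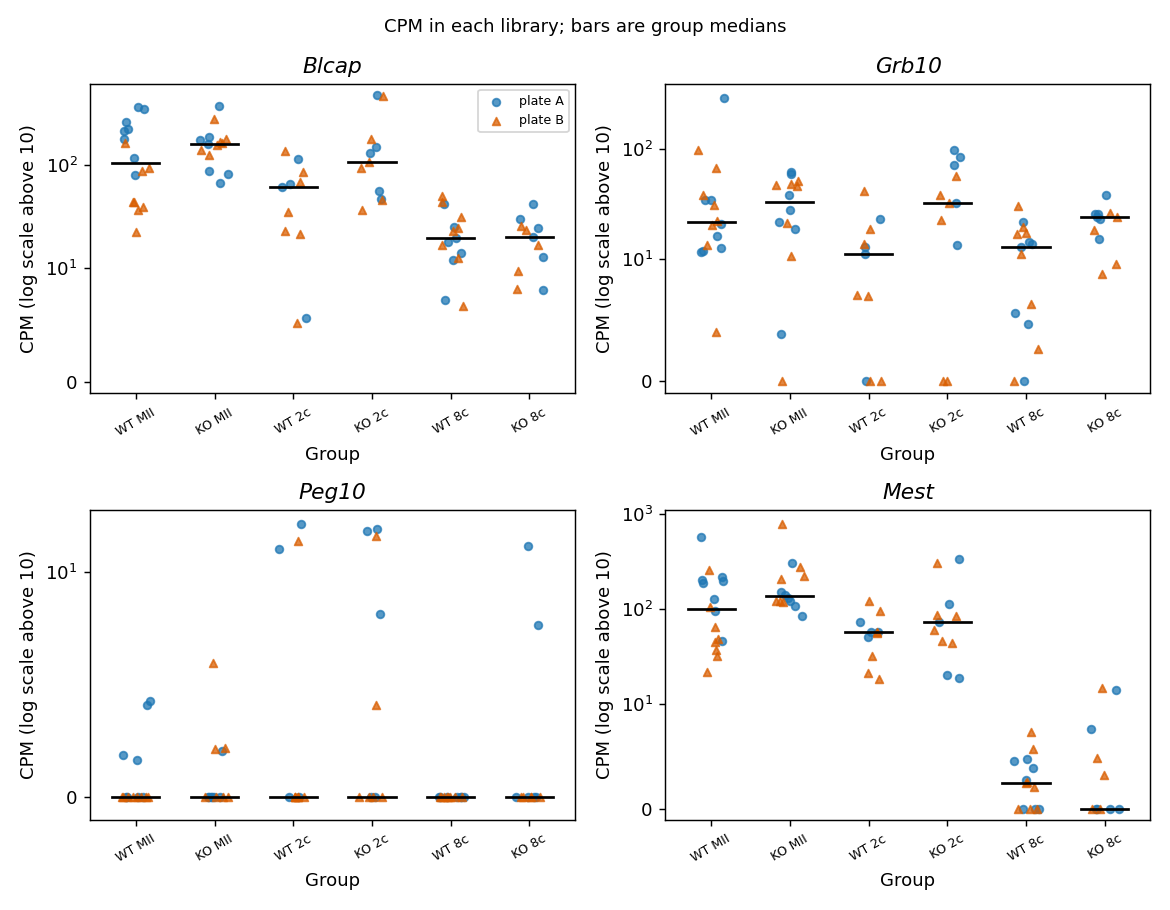
CPM of Blcap, Grb10, Peg10 and Mest in each kept library (points; circles plate A, triangles plate B) of the 6 groups, on an axis that is logarithmic above 10, with bars at the group medians. In the Blcap panel the 2 KO 2c points at 481 and 466 CPM lie above all WT 2c points, and in the Peg10 panel 2 KO 8c points lie above a row of zeros.

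**Figure D5:**
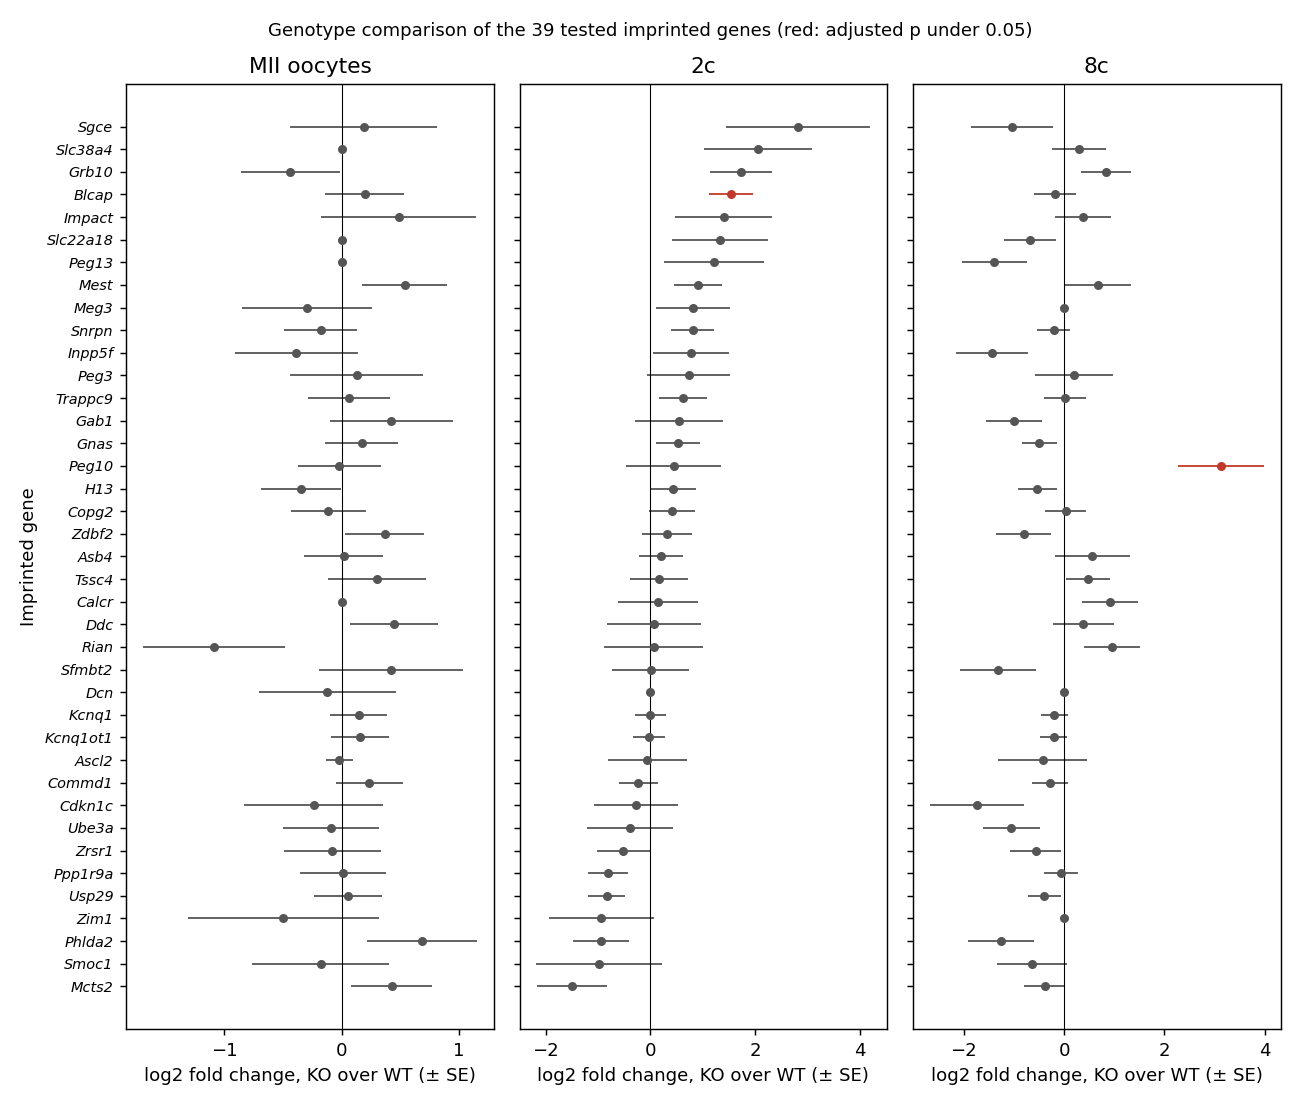
Log2 fold change of KO over WT (points) with its SE (bars) for the 39 tested imprinted genes in MII oocytes, 2c and 8c embryos. The SE was derived from the F of the test and can be too small for genes with few counts. Red marks an adjusted p under 0.05, genes are ordered by their 2c change, and each panel has its own x scale. The only red points are Blcap at 2c and Peg10 at 8c.

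Other genes of the imprinting machinery and other imprinted genes were taken from lists chosen in the same way, and their calls are to be read beside the 4.83% (2c) and 1.67% (8c) of all tested genes. Of 12 genes that protect imprints, 1 was called at 2c: Uhrf1, which recruits the maintenance methyltransferase, at a log2 fold change of 1.32 (adjusted p = 0.0385). Of 12 genes that set imprints or marks in the oocyte, 1 was called at 8c: Rnf2, a Polycomb ubiquitin ligase gene, at 1.30 (adjusted p = 0.0352). Of 23 other imprinted genes tested, 2 were called at 8c: Ampd3, an AMP deaminase gene, at 2.37 (adjusted p = 0.0284) and Jade1 at -1.60 (adjusted p = 0.0283). Plagl1, an imprinted paralogue of Plag1, was found in 5 of 11 WT and 3 of 11 KO 2c embryos (log2 fold change -1.01, adjusted p = 0.537).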

How the data were processed

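Single MII oocytes, 2c and 8c embryos were sequenced in 2 pools of 5′-end libraries. Raw counts per gene and for 92 spike-ins, not normalized, were deposited by the authors, with mm9 as the build (HOMER is named in the submitters' processing notes; its version is not given in the sources used here). Columns were matched to samples by label.

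Libraries with a median below 1 CPM, over genes with 1 CPM in at least 5 of all libraries, were left out (12 of 90). Genes with 1 CPM in at least 5 kept libraries were tested (16511) with edgeR 4.0.16 (quasi-likelihood, robust, all 6 groups, R 4.3.3), with Benjamini-Hochberg adjusted p under 0.05. Genotype and interaction contrasts used TMM, stage contrasts spike-in totals. Each SE was the absolute log2 fold change divided by the square root of the F of its test. The log2 fold change is drawn towards 0 at low counts, so this SE can be too small there. For Slc22a18 in oocytes it was 0.008 on 8 WT and 6 KO counts. DESeq2 1.42.0 and other settings were alternatives. The steps were tested on simulated data. Within each group no library was a copy of another (lowest chi-square per degree of freedom 3.54). Libraries of different groups were not compared.

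The imprinted genes and all gene lists were chosen with earlier results of these data known. All 49 imprinted genes are named, with full values for those called in a genotype comparison and the main stage changes. Counting intervals and their limits cover counting error only. A fold with an empty group set to 3 counts takes the other group's counts as exact and is not a lower bound. Subtraction of nested counts and leaving out well D2 were chosen after seeing the data, and the class of Smoc1 was corrected to paternally expressed after its values were seen. The supplementary tables were not used.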

Additional observations from a re-analysis of the deposited data

How the results depend on the processing

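The count of imprinted genes called was compared across alternatives. In oocytes it was 0, and 1 (Mest) in plate B alone. At 2c, where 1 was called, it was 0 with spike-in totals, 0 in plate A alone, 2 with DESeq2, 2 with the groups of that stage alone, and 0 without both KO libraries of well D2; in plate B alone it was 1, but that gene was Usp29. At 8c, where 1 was called, it was 0 with spike-in totals, DESeq2, plate as a term, plate A alone, plate B alone and the groups of that stage alone. Leaving out each library in turn gave 0 in oocytes, 0 to 2 at 2c and 0 to 1 at 8c. The 2c call was lost without either KO library of well D2, and the 8c call without KO libraries F5 or F6 or WT libraries E3, F3 or F4 of plate A or F1, F2 or F3 of plate B. DESeq2 called 1 interaction for 2c against MII and 1 for 2c against 8c, where edgeR called 0. Stage counts moved by over 1.5 times in single plates: WT oocyte to 2c 15 in plate B, KO oocyte to 2c 15 in plate A, and KO 2c to 8c 12 in plate A and 14 in plate B.

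Under TMM, 64 of 93 stage calls were kept with direction, 24 missed the threshold and 5 changed sign, all in KO from oocyte to 2c: Snrpn 0.3, Grb10 0.34, Tssc4 0.52, Asb4 0.06 and Usp29 0.53. Under DESeq2 with spike-in size factors 67 of 86 were kept and none changed sign. Calls for which DESeq2 gave no adjusted p are not among the 86. None of the rises from oocyte to 2c in KO was kept. Taking nested counts out turned Kcnq1 from 2c to 8c to -2.66 in WT and -1.85 in KO. The fewer embryos in a single plate limit its calls.

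The wells of the oocyte libraries were checked for pairing between plates, which hold opposite genotypes in a well. Of 14 pairs, 12 had a correlation of their deviations above 0.1, with a lowest value of -0.0503 on the edgeR log scale and -0.0562 on a log2(CPM + 1) scale, so not every pair passed and the wells were not treated as pairs; nothing in the labels ties a well to a mother. On each scale 12 of the 14 correlated best with their own well among the libraries of that group, which is a hint from the data and not from the design. Adding the oocyte well to the fit as a replicate block, beside plate, gave 1 imprinted gene (Mest) called in oocytes, and 701 of 13070 genes, against 0 and 47 for the 2 groups alone. The 2c and 8c wells were not checked for pairing. At 2c the 2 highest KO values of Mest, 337 and 301 CPM, were both in well D7, as those of Blcap were in D2. Mest differed between plates in wells D6 (20.1 and 85.6 CPM) and D8 (18.5 and 83 CPM). The 2c tests treat all libraries as independent, which the labels do not settle.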
